A study of Mus musculus with 8 samples.

Results

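The miRNAs miR-374b, miR-374c and miR-421 come from neighbouring hairpins on the mouse X chromosome, and 5 of their mature forms were examined: mmu-miR-374b-5p, mmu-miR-374b-3p, mmu-miR-374c-5p, mmu-miR-374c-3p and mmu-miR-421-3p. They were chosen by their names among the 1966 mature names counted without mismatches. No measured value enters that rule, but the choice was made with earlier results of these data known. Small RNAs were sequenced from NIH 3T3 (3T3) cells, an immortalised line of mouse fibroblasts, transfected with a plasmid that expresses a long dsRNA hairpin and cultured for 48 h; 4 such plasmids were used. CAG-EGFP-MosIR and CAG-EGFP-Lin28IR carry the CAG promoter and an EGFP reporter, and U6-MosIR and U6-Lin28aIR carry the U6 promoter of RNA polymerase III. The Mos plasmids hold an inverted repeat from the Mos mRNA and the Lin28 plasmids one from Lin28. In the paper the repeat of CAG-EGFP-Lin28IR comes from Lin28a/b and holds a Lin28b segment, while U6-Lin28aIR is named for Lin28a alone. There are 2 libraries per plasmid, each from its own transfected well, and 8 in all, so the p-values measure the spread between wells of one cell line. The promoter, the reporter, the ends of the hairpin and the length of its dsRNA all differ between CAG-EGFP and U6 plasmids. For Lin28 the sequence of the repeat differs as well. These differences cannot be told apart, and every group compared here expresses dsRNA.

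A miRNA gene is transcribed into a hairpin precursor, from which Drosha and Dicer release a short duplex of the 5p and the 3p arm. One arm is usually kept in an Argonaute protein as the guide, and its bases 2 to 8, the seed, choose the target mRNAs. The hairpins of miR-374b and miR-421 lie in an intron of Ftx, a long non-coding RNA gene of the X inactivation centre, the region around Xist that silences an X chromosome in female cells. In human cells miR-421 is known as a repressor of ATM, a kinase of the DNA damage response.

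The mature sequences are shown because the results turn on how far the names can be told apart in reads. They are from RefSeq on GRCm38.p6, 5′ to 3′, with the seed in capitals, and 4 of the 5 members were matched. The first pair lies on the minus strand, at chrX:103573112-103573133 for miR-374b-5p and chrX:103573075-103573096 for miR-374b-3p.
miR-374b-5p: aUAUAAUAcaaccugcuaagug
miR-374b-3p: gGUUGUAUuaucauuguccgag
The second pair lies on the plus strand, at chrX:103573086-103573105 for miR-374c-5p and chrX:103573113-103573131 for miR-374c-3p.
miR-374c-5p: aUAAUACAaccugcuaagug
miR-374c-3p: aCUUAGCAgguuguauuau
The sequence of miR-374c-5p is that of bases 3 to 22 of miR-374b-5p, so its seed starts 2 bases later and differs. The 4 seeds differ from each other, and none of the other mature miRNAs among the 1679 names of the RefSeq table has one of them. Such nesting is rare, since 4 of these 1679 names (0.238%) lie whole inside a longer mature sequence of another name.

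The hairpins show where this comes from, with both mature arms in capitals.
Mir374b hairpin: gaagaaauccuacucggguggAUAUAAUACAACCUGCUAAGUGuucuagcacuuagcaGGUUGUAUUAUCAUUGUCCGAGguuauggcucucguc
Mir374c hairpin: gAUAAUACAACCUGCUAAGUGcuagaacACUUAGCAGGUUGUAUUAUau
The Mir374c hairpin, at chrX:103573085-103573133 on the plus strand, is the exact reverse complement of bases 22 to 70 of the Mir374b hairpin, at chrX:103573060-103573154 on the minus strand. The Mir374b stem holds a perfectly paired stretch of 20 bases, and 20 bases of miR-374b-5p lie inside it. A stem of this kind reads nearly alike from both strands. As a result, a read with the sequence of miR-374c-5p has 2 exact places in the genome, both at this site, one on the plus strand under miR-374c-5p and one on the minus strand inside miR-374b-5p. The full sequences of miR-374b-5p and miR-374b-3p have 1 exact place each, and miR-374c-3p has 3, of which 2 are at this site. In the annotation (GENCODE M21) all 5 members lie between the ends of Ftx (chrX:103560907-103623790, minus strand) and overlap none of its 39 distinct exons, with miR-374c antisense to it. The miR-421-3p locus, at chrX:103572930-103572952 on the minus strand, follows downstream, with 63 bases between the Mir421 and the Mir374b hairpins.

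**Figure D1:**
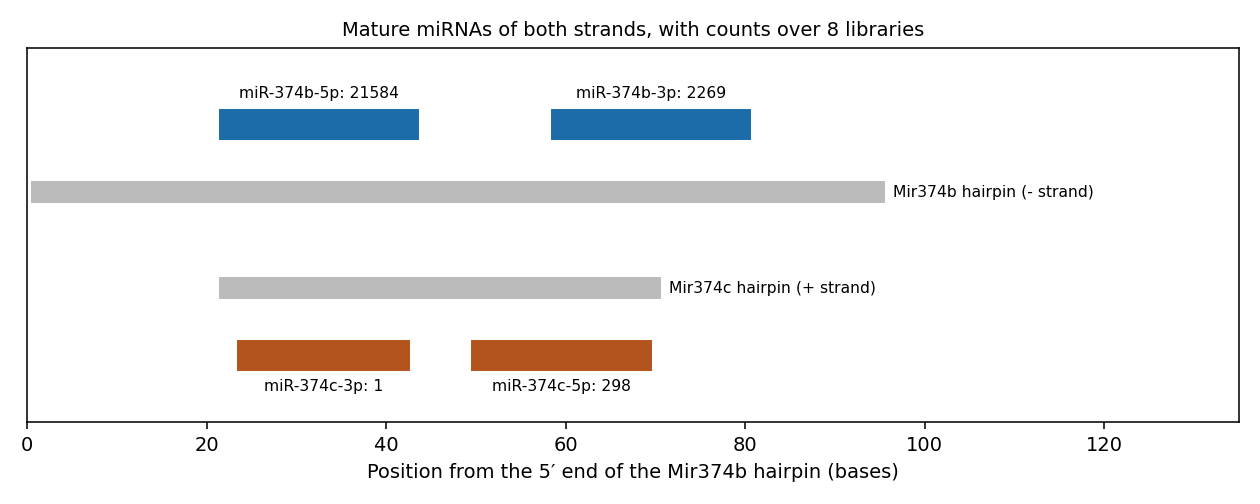
The map shows the mature miRNAs of both strands along the Mir374b hairpin, with the position in bases from its 5′ end on the x axis, hairpins as grey bars, minus-strand miRNAs in blue and plus-strand miRNAs in brown, each with its count over the 8 libraries. miR-374b-5p and miR-374c-3p share 19 bases on opposite strands but have 21584 counts and 1 count.

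Counts at the site fell almost wholly under the names of the minus strand. Over the 8 libraries miR-374b-5p had 21584 counts, miR-374b-3p 2269, miR-374c-5p 298 and miR-374c-3p 1. miR-374c-3p and miR-374b-5p share 19 bases on opposite strands, so the counts of 1 and 21584 show that reads of miR-374b-5p were not also listed under miR-374c-3p. They do not show that the strand decided this. The miR-374c-3p locus lies inside that of miR-374b-5p, and a full miR-374b-5p read reaches past it at both ends. The 298 counts of miR-374c-5p cannot be assigned to a strand, because a read with exactly its sequence matches both. They amount to 1.38 per 100 counts of miR-374b-5p, which bounds the reads that both names could hold if they were listed under each. The sources used here do not state how a read was given to a name.

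The libraries had 12898619 to 16228597 perfectly mapped reads and 1733203 to 3341065 counts on miRNAs. Levels are given in RPM, the counts of perfect reads relative to all reads of that library that mapped without a mismatch. A name with 0 counts may have stood at up to 0.185 RPM in the deepest and 0.233 RPM in the shallowest library (3 counts, counting error alone). Counts on miRNAs were 10.9% to 16.5% of the perfectly mapped reads in the CAG-EGFP libraries and 18.7% to 22.1% in the U6 libraries, without overlap. All 8 miRNAs listed as fibroblast and mesenchymal markers were present, led by miR-21a-5p at 48266 RPM on average, and their summed level was 35748 to 56906 RPM in the CAG-EGFP libraries and 69512 to 84017 RPM in the U6 libraries. Of the embryonic stem cell list 7 of 8 had no count in any library and the list summed to at most 0.0710 RPM, and the lists of blood cells, muscle, epithelium and hepatocytes summed to at most 3.26, 1.77, 2.68 and 0.854 RPM. The neuron list summed to 144 to 282 RPM through miR-9-5p (159 RPM) and miR-128-3p (49.7 RPM), with miR-124-3p at 0.528 RPM. No marker passed the threshold in U6 against CAG-EGFP or in Lin28 against Mos in the fit described below.

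miR-374b-5p was the leading product of the group at 184 RPM ± 48.6 (SD, n = 8), rank 68 of the 1966 names. The CAG-EGFP-MosIR wells had 161 and 123 RPM, the CAG-EGFP-Lin28IR wells 242 and 160, the U6-MosIR wells 171 and 195, and the U6-Lin28aIR wells 154 and 268. The highest library was thus 2.2 times the lowest, and the 2 wells of each Lin28 plasmid lay further apart than those of U6-MosIR. By plasmid mean the order was U6-Lin28aIR (211 RPM), CAG-EGFP-Lin28IR (201), U6-MosIR (183) and CAG-EGFP-MosIR (142), and the wells of the first 3 plasmids overlapped. The higher CAG-EGFP-MosIR well (161 RPM) lay above the lower well of CAG-EGFP-Lin28IR (160 RPM) and of U6-Lin28aIR (154 RPM). It stood just below the lower U6-MosIR well (171 RPM). In bulk RNA less miRNA per cell and fewer cells that carry it cannot be told apart.

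miR-374b-3p, the other arm of the same hairpin, stood at 19.3 RPM ± 5.76 (SD, n = 8), rank 160. The CAG-EGFP-MosIR libraries had 12.7 and 16.2 RPM, the CAG-EGFP-Lin28IR libraries 14.95 and 14.5 RPM, the U6-MosIR libraries 24.6 and 20.8 RPM, and the U6-Lin28aIR libraries 21.2 and 29.4 RPM. Every U6 library was above every CAG-EGFP library on this scale, as for 31.1% of the 360 miRNAs tested below, and the Mos and Lin28 libraries overlapped. The 5p arm made up 90.5% of the miR-374b counts, from 87.4% (95% Wilson interval 86.2% to 88.5%) in U6-MosIR replicate 1 to 94.2% (93.4% to 94.9%) in CAG-EGFP-Lin28IR replicate 1. These intervals cover counting error only. The wells of CAG-EGFP-MosIR, at 92.7% and 88.4%, already differed by more than their counting intervals.

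miR-374c-5p was low, at 2.55 RPM ± 0.685 (SD, n = 8) and rank 258, and rested on 24 to 51 counts per library. It had 26 and 24 counts (1.83 and 1.63 RPM) with CAG-EGFP-MosIR and 35 and 32 counts (2.16 and 2.27 RPM) with U6-MosIR. With CAG-EGFP-Lin28IR it had 51 and 46 counts (3.63 and 2.89 RPM), and with U6-Lin28aIR 38 and 46 counts (2.95 and 3.05 RPM). All 4 Lin28 libraries were therefore above all 4 Mos libraries, as for 0.278% of the 360 miRNAs tested below, whereas the promoters overlapped. Per 100 counts of miR-374b-5p there were between 1.14 (95% Wilson interval 0.777 to 1.66) in CAG-EGFP-MosIR replicate 1 and 1.92 (1.40 to 2.62) in U6-Lin28aIR replicate 1, and the intervals of these extremes overlapped. The ratio averaged 1.22 ± 0.0884 (SD, n = 4) with Mos plasmids and 1.59 ± 0.350 (SD, n = 4) with Lin28 plasmids, and the groups overlapped.

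miR-374c-3p was seen once, in U6-Lin28aIR replicate 1 (1 count, 0.0775 RPM), and had 0 counts in the other 7 libraries. It made up 0.334% of the miR-374c counts, with an exact 95% Clopper-Pearson interval of 0.00847% to 1.85%. It did not pass the filter on low counts, so 4 of the 5 members were tested.

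miR-421-3p stood at 37.6 RPM ± 9.06 (SD, n = 8), rank 134. Its RPM was 30.01 and 37.7 in the CAG-EGFP-MosIR wells, 26.9 and 25.4 in the CAG-EGFP-Lin28IR wells, 43.5 and 42.7 in the U6-MosIR wells, and 44.7 and 49.5 in the U6-Lin28aIR wells. As for miR-374b-3p and 31.1% of the 360 miRNAs tested, every U6 library lay above every CAG-EGFP library in RPM. The lowest levels were those of CAG-EGFP-Lin28IR. The 5p arm of this hairpin, miR-421-5p, had 7 counts over all libraries against 4395 for the 3p arm, or 0.159% (exact 95% interval 0.0640% to 0.327%). The order of levels was miR-374b-5p, miR-421-3p, miR-374b-3p, miR-374c-5p and miR-374c-3p in each of the 8 libraries. RPM values of different miRNAs also reflect how well each sequence is ligated and amplified, which was not tested.

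**Figure D2:**
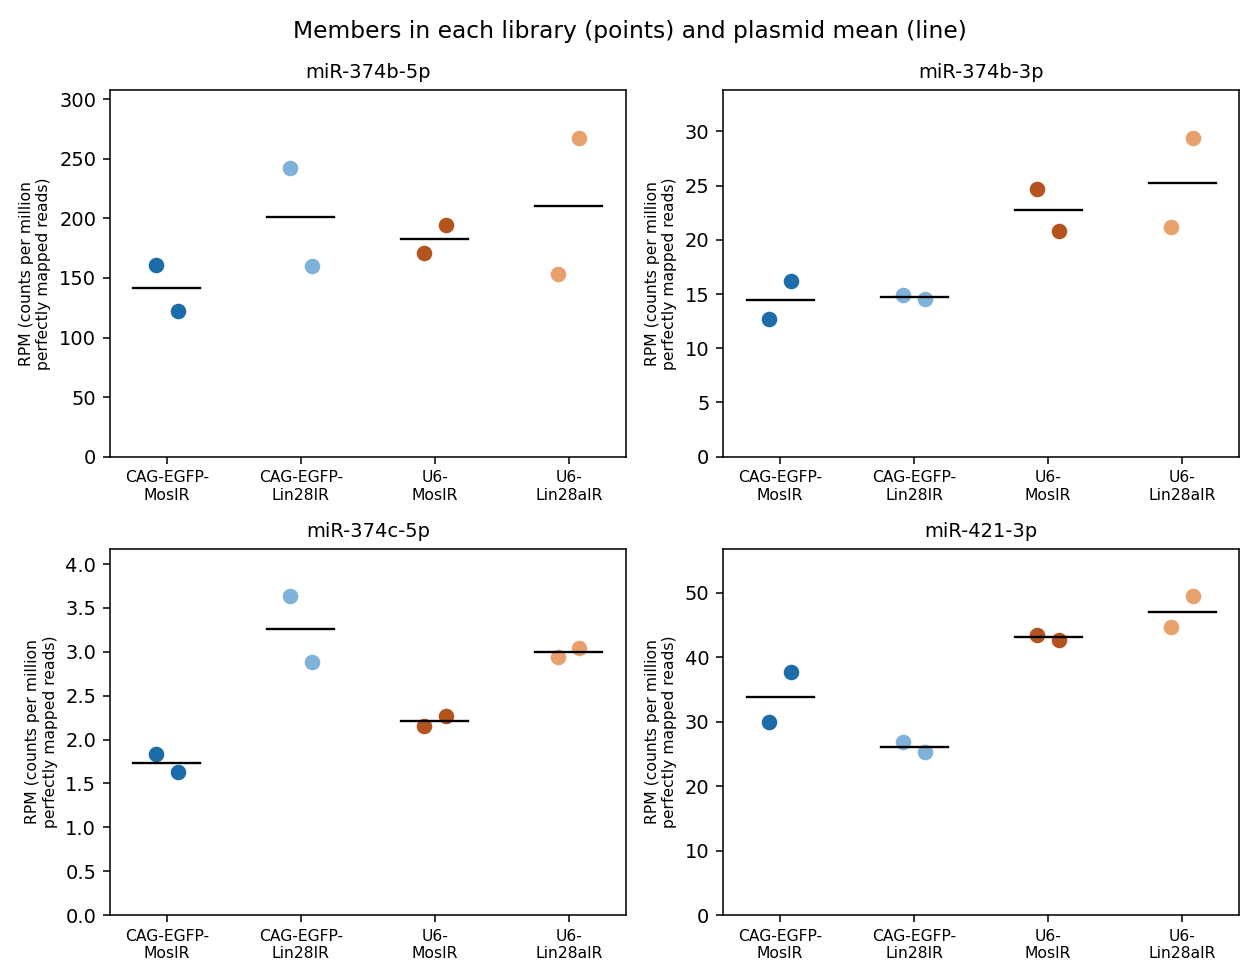
RPM of the 4 members that passed the filter, in each library (points) and as the mean of the 2 libraries (line), by plasmid on the x axis, with y axes from 0. U6 libraries lie above all CAG-EGFP libraries for miR-374b-3p (20.8 to 29.4 against 12.7 to 16.2 RPM) and miR-421-3p (42.7 to 49.5 against 25.4 to 37.7 RPM), and Lin28 libraries above all Mos libraries for miR-374c-5p (2.89 to 3.63 against 1.63 to 2.27 RPM). Of the 360 miRNAs tested 31.1% show the first separation in RPM and 0.278% the second.

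The first comparison asks whether the members differ between U6 and CAG-EGFP plasmids. On the RPM scale miR-374b-3p averaged 24.0 ± 4.0 (SD, n = 4) with U6 and 14.6 ± 1.44 (SD, n = 4) with CAG-EGFP plasmids, and miR-421-3p 45.1 ± 3.03 against 29.99 ± 5.48. Such a separation was common: 112 of the 360 miRNAs tested (31.1%) had all U6 libraries above all CAG-EGFP libraries in RPM, so 2 of 4 tested members among them is no result about the members. The U6 libraries also had the larger miRNA share given above, which is made up of the same counts. Whether that share accounts for the separation was not tested. In the edgeR quasi-likelihood fit with TMM, a scaling that sets the bulk of miRNAs equal between libraries, none of the 4 tested members passed an adjusted p of 0.05, where 0.556% of the 360 did. On the TMM-scaled CPM, the counts scaled by the miRNA counts of the library with the TMM factor, 2.5% of the 360 had all U6 libraries above all CAG-EGFP libraries, and no member did.

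In that fit the log2 fold change of U6 against CAG-EGFP was 0.22 (SE 0.15, adjusted p = 0.644) for miR-374b-3p and 0.10 (SE 0.14, adjusted p = 0.825) for miR-421-3p. It was -0.30 (SE 0.16) for miR-374b-5p and -0.38 (SE 0.21) for miR-374c-5p, both with an adjusted p of 0.562. The 2 arms of miR-374b thus had fitted values of opposite sign, neither past the threshold. With the library sizes as deposited and no TMM, the median of all 360 miRNAs moved from -0.0023 to 0.50 on the log2 scale, and 50.3% were called higher with U6. miR-374b-3p (0.72, adjusted p = 0.0025) and miR-421-3p (0.60, adjusted p = 0.00587) were then among them in edgeR, both close to that median. miR-374b-5p (0.22, adjusted p = 0.280) and miR-374c-5p (0.12, adjusted p = 0.666) changed sign and stayed below the median of all miRNAs, as they did with TMM.

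For the Mos plasmids alone, U6 against CAG-EGFP gave 0.094 (SE 0.23) for miR-374b-5p, 0.41 (SE 0.21) for miR-374b-3p, 0.096 (SE 0.31) for miR-374c-5p and 0.098 (SE 0.19) for miR-421-3p. No member and 0% of the 360 miRNAs passed, and 18 of the 360 had an unadjusted p under 0.05. For the Lin28 plasmids the values of miR-374b-5p and miR-374c-5p were -0.69 (SE 0.23) and -0.86 (SE 0.28), with an adjusted p of 0.269 in edgeR for both, and those of miR-374b-3p and miR-421-3p 0.022 (SE 0.21) and 0.10 (SE 0.19). Here 0.556% of the 360 were called, none of them a member. With the deposited library sizes 56.4% were called higher with U6-Lin28aIR, including miR-374b-3p and miR-421-3p. The difference between these contrasts, tested as an interaction, was -0.78 (SE 0.32, adjusted p = 0.994 in edgeR) for miR-374b-5p and -0.96 (SE 0.42, adjusted p = 0.994) for miR-374c-5p, and 0% of miRNAs passed.

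The second comparison asks whether the members differ between Lin28 and Mos hairpins. Only miR-374c-5p of the 360 miRNAs (0.278%) had every Lin28 library above every Mos library in RPM, at 3.13 ± 0.342 against 1.97 ± 0.295 (SD, n = 4 each). On TMM-scaled CPM 4 miRNAs did (1.11%), miR-374c-5p among them. Its log2 fold change was 0.80 (SE 0.21), and its unadjusted p was the lowest of the 360 in edgeR, but the adjusted p was 0.327. miR-374b-5p had the next lowest p, with a log2 fold change of 0.46 (SE 0.16, adjusted p = 0.970). The fold changes of miR-374b-3p and miR-421-3p were 0.22 (SE 0.15) and 0.0097 (SE 0.14). No miRNA passed the adjusted threshold in this comparison (0% of 360), and 10 had an unadjusted p under 0.05.

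The fitted difference between hairpins was larger with CAG-EGFP than with U6 plasmids for both names, though that gap is the interaction that did not pass above. On the TMM-scaled CPM miR-374b-5p was at 1098 and 754 with CAG-EGFP-MosIR, 1920 and 1420 with CAG-EGFP-Lin28IR, 967 and 1009 with U6-MosIR, and 822 and 1252 with U6-Lin28aIR. Both CAG-EGFP-Lin28IR libraries were above the other 6. The same libraries were the highest for miR-374c-5p, at 29.6 and 26.5 with CAG-EGFP-Lin28IR and between 10.8 and 16.6 in the other 6 libraries. How many of the 360 miRNAs had both CAG-EGFP-Lin28IR libraries above the rest was not counted. In RPM neither name showed it. miR-374b-5p was then highest in U6-Lin28aIR replicate 2 (268 RPM), with CAG-EGFP-Lin28IR replicate 2 at 160 RPM. miR-374c-5p in CAG-EGFP-Lin28IR replicate 2 (2.89 RPM) lay below both U6-Lin28aIR libraries (2.95 and 3.05 RPM). In CAG-EGFP-Lin28IR against CAG-EGFP-MosIR the log2 fold change was 1.28 (SE 0.30, adjusted p = 0.108 in edgeR) for miR-374c-5p and 0.85 (SE 0.23, adjusted p = 0.155) for miR-374b-5p, the lowest and the third lowest p of the 360. The other members had 0.41 (SE 0.22, miR-374b-3p) and 0.0078 (SE 0.19, miR-421-3p). No miRNA passed (0% of 360), and 20 had an unadjusted p under 0.05. With U6 plasmids the Lin28 and Mos hairpins gave 0.32 (SE 0.29) for miR-374c-5p, 0.071 (SE 0.23) for miR-374b-5p, 0.025 (SE 0.21) for miR-374b-3p and 0.012 (SE 0.19) for miR-421-3p, again with 0% called. A read with exactly the sequence of miR-374c-5p also matches inside miR-374b-5p, and whether such reads were listed under both names is not known.

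With TMM and all 8 libraries no member passed, and whether one passed with a library left out depended on which library it was. In CAG-EGFP-Lin28IR against CAG-EGFP-MosIR, miR-374b-5p and miR-374c-5p both passed the threshold in edgeR when U6-MosIR replicate 2, U6-Lin28aIR replicate 1 or U6-Lin28aIR replicate 2 was left out (adjusted p = 0.0335, 0.0162 and 0.0248 for both). They were then the only miRNAs called, at 0.513%, 0.513% and 0.512% of those tested. Both also passed without CAG-EGFP-MosIR replicate 1 (adjusted p = 0.000368 and 0.0462), where 2.34% were called. Whenever a library was left out, its plasmid kept 1 library, which was assumed to vary like the other groups. Neither name passed without CAG-EGFP-Lin28IR replicate 1 (adjusted p = 0.770 for both), CAG-EGFP-Lin28IR replicate 2 (0.234 for both), CAG-EGFP-MosIR replicate 2 (0.164 for both) or U6-MosIR replicate 1 (0.0554 for both). The log2 fold change of miR-374b-5p was 1.11 without CAG-EGFP-MosIR replicate 1 and 0.62 without replicate 2. The U6 wells are outside this comparison, and leaving them out hardly moved this fold change. It was 0.85 without U6-MosIR replicate 2 or U6-Lin28aIR replicate 1, and 0.82 without U6-MosIR replicate 1 or U6-Lin28aIR replicate 2. In U6-Lin28aIR against CAG-EGFP-Lin28IR miR-374b-5p passed without CAG-EGFP-MosIR replicate 1 (adjusted p = 0.00442, 3.38% called), without CAG-EGFP-MosIR replicate 2 (0.00858, 2.84% called) and without U6-Lin28aIR replicate 2 (log2 fold change -1.05, adjusted p = 0.0158, 0.767% called). It did not pass without any of the other 5 libraries. Its log2 fold change was -0.43 (adjusted p = 0.870) without U6-Lin28aIR replicate 1 and -0.48 (0.919) without CAG-EGFP-Lin28IR replicate 1. Leaving out CAG-EGFP-MosIR replicate 1 also called it in Lin28 against Mos (log2 fold change 0.57, adjusted p = 0.0196, 0.779% called) and in the interaction (-1.09, adjusted p = 0.0229, 0.779% called).

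**Figure D3:**
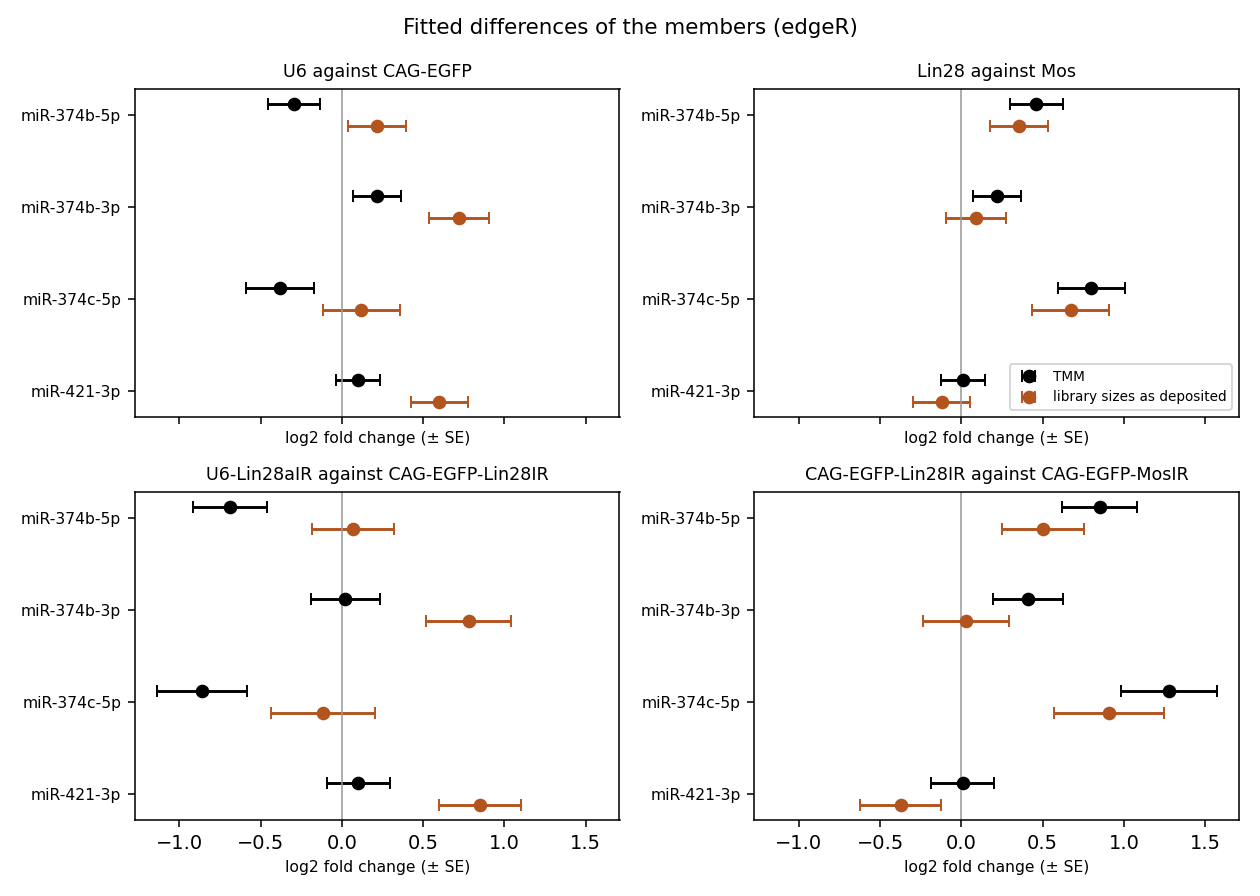
Log2 fold changes (x axis, points with SE) of the 4 tested members from the edgeR fit with TMM (black) and with library sizes as deposited (brown), in 4 comparisons. In U6 against CAG-EGFP the deposited sizes move every member up by about as much as the median of all miRNAs, which goes from -0.0023 to 0.50, while in CAG-EGFP-Lin28IR against CAG-EGFP-MosIR miR-374b-5p and miR-374c-5p lie above 0 with both.

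Ratios within a library do not depend on its scaling, and 2 were compared in 4 tests. The 5p share of the miR-374b counts was 88.9% ± 1.51 (SD, n = 4) with U6 and 91.7% ± 2.48 (SD, n = 4) with CAG-EGFP plasmids, and the groups overlapped (two-sided exact permutation test over 70 assignments, p = 0.114, adjusted p = 0.4). Between Lin28 (91.0% ± 2.65) and Mos (89.7% ± 2.35) plasmids the exact permutation p was 0.514. The log2 ratio of miR-421-3p to miR-374b-5p counts ranged from -3.17 in CAG-EGFP-Lin28IR replicate 1 to -1.70 in CAG-EGFP-MosIR replicate 2. It was -2.09 ± 0.282 (SD, n = 4) with U6 and -2.49 ± 0.610 (SD, n = 4) with CAG-EGFP plasmids (exact permutation test, p = 0.343, adjusted p = 0.457). With Lin28 plasmids it was -2.51 ± 0.576 and with Mos plasmids -2.07 ± 0.308 (exact permutation test, p = 0.2, adjusted p = 0.4). The smallest p that 4 libraries against 4 allow is 0.0286. miR-421-3p was steadier against miR-374b-3p, at 1.68 to 2.37 counts per count, than against miR-374b-5p, at 0.111 to 0.307.

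**Figure D4:**
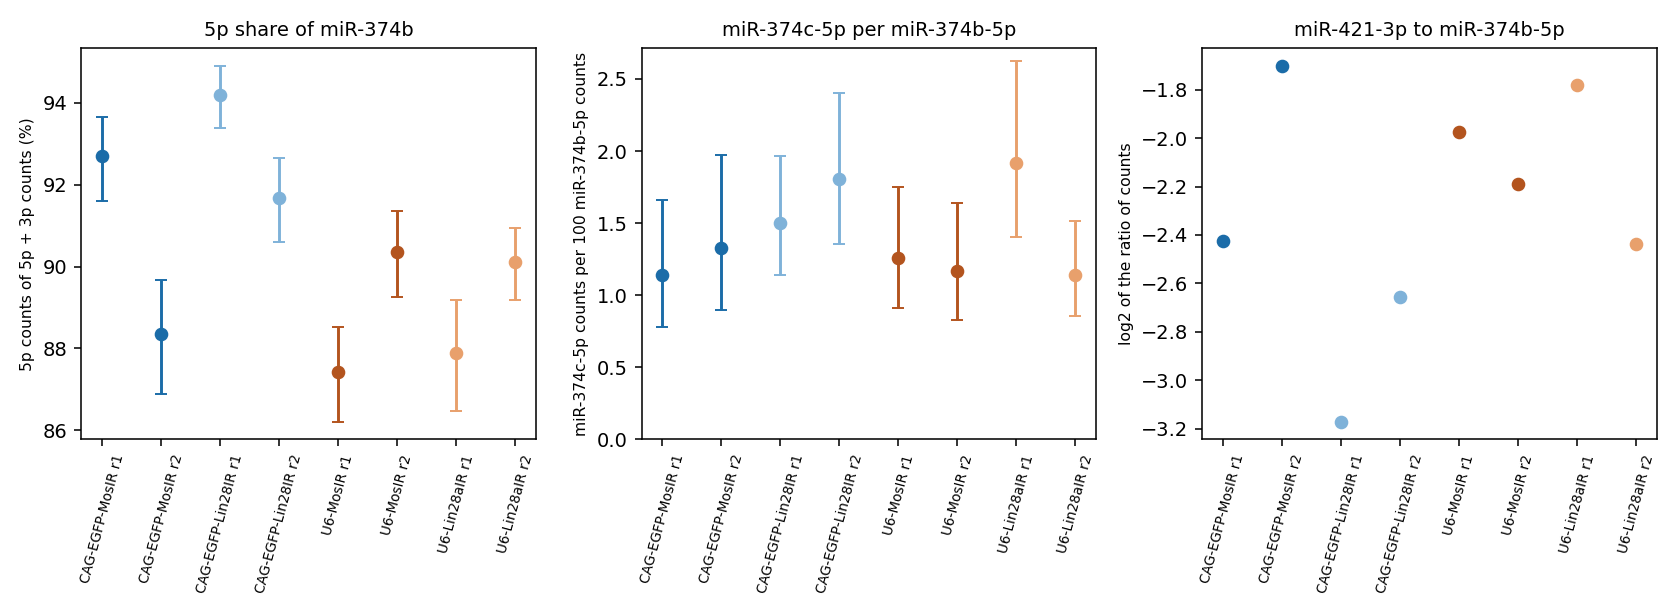
From left to right, the 5p share of miR-374b counts in percent (y axis from 86 to 95), the miR-374c-5p counts per 100 miR-374b-5p counts (y axis from 0) and the log2 ratio of miR-421-3p to miR-374b-5p counts, in each of the 8 libraries, with 95% Wilson intervals where drawn. U6 and CAG-EGFP libraries overlap in all 3 panels.

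Across the 8 libraries the members did not follow one pattern. On log2 TMM-scaled CPM Pearson's r was 0.84 between miR-374b-5p and miR-374c-5p, 0.32 between the 2 arms of miR-374b, 0.63 between miR-374b-3p and miR-421-3p and -0.51 between miR-374b-5p and miR-421-3p, as a description of 8 libraries that share their scaling. Among 184 other miRNAs with a mean of at least 10 RPM, the most like miR-374b-5p were miR-32-5p (r = 0.94), miR-30c-5p (0.90) and miR-30b-5p (0.88). For miR-374b-3p they were miR-340-5p (0.94), miR-152-3p (0.93) and miR-101b-3p (0.89), and for miR-374c-5p miR-130b-5p (0.85), miR-28a-5p (0.84) and miR-199b-3p (0.83). The nearest to miR-421-3p were miR-744-5p (0.94), miR-9-5p (0.91) and miR-10b-3p (0.84).

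Of the 156 other names on the X chromosome 78 had a count and 38 passed the filter. None of the 38 passed the threshold in U6 against CAG-EGFP or in Lin28 against Mos, and their median log2 fold changes were 0.10 and 0.069, beside -0.0023 and 0.043 over all 360 miRNAs. The most abundant were let-7f-5p (10184 RPM), miR-221-3p (1047) and miR-222-3p (877), with log2 fold changes of U6 against CAG-EGFP of 0.099 (SE 0.19), 0.061 (SE 0.14) and 0.054 (SE 0.15). A range of 500 kb around the members held no listed name other than miR-421-5p.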

How the data were processed

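The authors trimmed adapters, mapped the reads with STAR 2.5.3a (also named in the submitters' processing notes, with mm10) to mm10 with the plasmid sequences added, and kept all multimapping reads with up to 2 mismatches. They deposited raw read counts for each locus of a mature miRNA, with up to 0, 1 or 2 mismatches, and the counts of mapped reads in every library. All value columns were matched to samples by name.

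RPM used counts without mismatches and perfectly mapped reads. A name at several loci was kept at its highest locus, and each member has 1 locus. The test was the robust quasi-likelihood F test of edgeR 4.0.16 (R 4.3.3), with TMM and filterByExpr, in 1 fit of the 4 plasmids over 8 libraries, with Benjamini-Hochberg adjustment over the 360 miRNAs that passed the filter and a threshold of 0.05. CPM values are TMM-scaled with a prior count of 2. Ratios within libraries were compared by two-sided exact permutation tests (SciPy 1.17.1). The edgeR fit was tested on simulated data. The alternatives were DESeq2 1.42.0, deposited library sizes, other filters and mismatches, the replicate block, no robust estimation, summed loci, other RPM denominators and each library left out.

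Besides the members, the text names the 3 miRNAs of at least 10 RPM most like each tested member and up to 3 of the highest of each list (X chromosome, within 500 kb, opposite-strand overlaps, shared seeds, miR-421-5p and cell type markers). Members and lists were chosen with earlier results of these data known. Sequences are from RefSeq (GRCm38.p6), matched by name.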

Additional observations from a re-analysis of the deposited data

How the results depend on the processing

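The 28 fold changes of the 4 tested members in the 7 comparisons were recomputed under 17 settings, 469 values in all. Of these, 400 kept their direction and side of the threshold, 17 passed the threshold only in the alternative, and 52 changed sign, none of them past it.

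With deposited library sizes miR-374b-3p and miR-421-3p passed in U6 against CAG-EGFP (0.72 and 0.60) and in U6-Lin28aIR against CAG-EGFP-Lin28IR (0.78 and 0.85). miR-374b-5p then turned to 0.22 and 0.068 in these comparisons, miR-374c-5p to 0.12 in the first, and the interaction of miR-374b-3p to 0.13. The fold changes of miR-421-3p lay near 0 in several comparisons. In CAG-EGFP-Lin28IR against CAG-EGFP-MosIR it turned to -0.37 with deposited sizes, -0.10 with no filter on low counts, -0.036 with a mean of at least 10 RPM, -0.0042 and -0.0013 with up to 1 and 2 mismatches and -0.023 in DESeq2. In Lin28 against Mos it turned to -0.12 with deposited sizes, -0.048 with no filter, -0.014 with a mean of at least 10 RPM and -0.027 in DESeq2. Its interaction turned to -0.015 with loci summed and -0.0086 in DESeq2, and U6-Lin28aIR against U6-MosIR to -0.032 in DESeq2. DESeq2 also turned miR-374b-3p to -0.00033 in U6-Lin28aIR against CAG-EGFP-Lin28IR and -0.020 in U6-Lin28aIR against U6-MosIR.

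With 1 library left out, 10 fold changes spanned 0. miR-421-3p ranged from -0.11 to 0.12 in CAG-EGFP-Lin28IR against CAG-EGFP-MosIR, -0.072 to 0.056 in Lin28 against Mos, -0.075 to 0.012 in U6-Lin28aIR against U6-MosIR, -0.019 to 0.22 in U6-MosIR against CAG-EGFP-MosIR and -0.13 to 0.068 in the interaction. miR-374b-3p ranged from -0.17 to 0.14 in U6-Lin28aIR against CAG-EGFP-Lin28IR and -0.16 to 0.14 in U6-Lin28aIR against U6-MosIR. miR-374b-5p ranged from -0.31 to 0.31 in U6-Lin28aIR against U6-MosIR. In U6-MosIR against CAG-EGFP-MosIR miR-374b-5p ranged from -0.13 to 0.36 and miR-374c-5p from -0.033 to 0.23. The cause of these was not tested.

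Leaving out each library in turn gave 0 to 2 members called in CAG-EGFP-Lin28IR against CAG-EGFP-MosIR, and 0 to 1 in Lin28 against Mos, in the interaction and in U6-Lin28aIR against CAG-EGFP-Lin28IR. It gave 0 in the other 3 comparisons. The exact tests of the 5p share and of the log2 ratio of miR-421-3p to miR-374b-5p gave the same p with up to 1 or 2 mismatches. With a library left out, 3 against 4 cannot give a p under 0.0571, so only the values are given. The 5p share differed by -3.92 to -1.97 percentage points for U6 against CAG-EGFP and by 0.18 to 2.28 for Lin28 against Mos, and the log2 ratio by 0.17 to 0.66 and by -0.68 to -0.22.

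No strong effect shared by replicate number was seen: between plasmids, deviations of replicate 1 from the plasmid mean correlated at -0.17 to 0.16 over the 360 miRNAs. Whether wells of the same number were handled together is not stated. With the replicate block 0 members passed in all 7 comparisons, and miR-374c-5p in Lin28 against Mos had a log2 fold change of 0.80 (edgeR, adjusted p = 0.273). Mean RPM depends on the denominator: miR-374b-5p stood at 169 to 1332 under the 4 alternatives.

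miR-374c-5p rested on 24 to 51 counts per library and miR-374c-3p on 1 count in all. No untransfected library was used here.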

Other observations

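Opposite-strand overlap was also looked at genome-wide, members included, over the 1734 of 2108 listed loci with a strand in the RefSeq table. The pairs are of loci, so the same names can recur, as miR-24-3p and miR-3074-5p do on chromosomes 8 and 13. There were 40 pairs of overlapping loci on opposite strands. In 11 of them the higher locus had at least 500 counts and shared at least 15 bases with the other, and the lower locus had at most 0.0815 counts per 100 of the higher. miR-374b-5p and miR-374c-3p are 1 of these pairs, at 0.00463 per 100. Among pairs below 500 counts some had no count at the lower locus, but others were less one-sided. miR-219a-1-3p and miR-219c-5p (237 and 7 counts) had 2.95 per 100. The pair of miR-216c-5p and miR-216b-3p (30 and 6 counts) had 20, and miR-5615-5p and miR-5615-3p (19 and 7 counts) had 36.8. The pair of miR-374b-3p and miR-374c-5p, which shares 11 bases, had 13.1 counts of miR-374c-5p per 100 of miR-374b-3p. A read with exactly the sequence of miR-374c-5p also matches inside miR-374b-5p on the minus strand, but the reads themselves were not examined.

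Of the 65 other names in such pairs 9 passed the filter, and none passed the threshold in U6 against CAG-EGFP or in Lin28 against Mos. Their median log2 fold changes were 0.034 and 0.027, beside -0.0023 and 0.043 over all 360. The most abundant were miR-24-3p (2860 RPM), miR-24-2-5p (226 RPM) and miR-9-5p (159 RPM), with log2 fold changes of U6 against CAG-EGFP of -0.26 (SE 0.16), 0.034 (SE 0.13) and 0.23 (SE 0.14).

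Of 12 groups of 4 libraries (6 measures of the members, by promoter), none held a library far enough from the others to pass the 95% limit of Dixon's test. The nearest was miR-421-3p in U6-Lin28aIR replicate 2, whose gap to the next library was 0.702 of the range.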
